A study of Mus musculus with 2 samples.

Results

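The genes of glutathione and antioxidant enzymes were compared between 2 samples of the mouse eye lens, cortical fiber cells (cortex) and epithelial cells (epithelium), with 1 array each. The members were all probes whose only gene symbol belonged to the glutathione transferase (Gst of the alpha, mu, pi, theta, kappa, omega and zeta classes, and Mgst), glutathione peroxidase (Gpx), peroxiredoxin (Prdx), thioredoxin (symbols starting with Txn), superoxide dismutase (Sod) or glutaredoxin (Glrx) families, together with Cat, Gclc, Gclm, Gss, Gsr, Nqo1, Mt1 and Mt2. This gave 73 of 19819 probes, which stand for 67 of 13769 genes, and 64 of the 67 had a value on both arrays. Gsta4, Gstm1 and Gstt2 had a missing value on each array, and Mt1, Mgst2, Prdx5 and Prdx6 were not analysed here. The lenses were from 5 mice 13 days of age. The cortex sample was the cortical fiber mass and the epithelium sample was the capsule with the cells attached to it, parted with forceps. The sources used here give no strain or genotype and do not say whether the mice were pooled. Each sample is a whole tissue piece, so fewer cells of a type and less RNA per cell cannot be told apart. No treatment beyond the dissection in salt solution is named for either sample.

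The lens epithelium is the cell layer under the front of the capsule, and its cells elongate into the fibers that make up the rest of the lens. The lens holds an unusually high concentration of glutathione, a tripeptide thiol that keeps the long-lived crystallins of the fibers reduced, and loss of it is a known feature of cataract. Glutathione is made by glutamate-cysteine ligase and glutathione synthetase, is used by transferases to conjugate reactive compounds and by peroxidases to reduce peroxides, and is returned to its reduced form by glutathione reductase with NADPH. Peroxiredoxins, thioredoxins and glutaredoxins form parallel thiol systems, while superoxide dismutase and catalase act on superoxide and hydrogen peroxide directly.

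The 2 samples carried the markers of their labels. Of 12 lens fiber markers with a value, 10 were 3-fold or more brighter in cortex as deposited, and all 7 lens epithelium markers with a value were so in epithelium. The fiber markers were above the floor on the epithelium array as well, between 2.91 (Lgsn) and 1016 (Cryba1). Markers of neighbouring tissue were also seen. Of 7 ciliary body markers, Ptgds (7.54 in cortex against 123 in epithelium), Msx1 (1.07 against 8.36) and Car2 (2.14 against 17.4) were higher in epithelium, with a summed level of 12.03 in cortex and 150 in epithelium, and Aqp4, Car4 and Wfdc1 were at or near the floor. Of 6 pigment cell markers, Oca2 (0.521 in cortex against 9.09 in epithelium) and Tyrp1 (0.241, below the floor, against 3.302) were higher in epithelium and Dct (1.97 against 0.210, below the floor) in cortex, with a summed level of 4.54 in cortex and 14.8 in epithelium, and Tyr was below the floor on both arrays. The free text of both samples speaks of fetal liver. Of 9 liver markers with a value, Afp, Apoa1, Ttr and Serpina1a lay between 0.205 and 0.660 in cortex and between 0.165 and 0.680 in epithelium. Apoa2 had 0.708 in cortex against 0.888 in epithelium, Fgb 0.506 against 0.235, below the floor, and Trf 1.16 against 2.26. Ahsg was at 185 in cortex against 16.9 in epithelium and Tat at 1.90 against 0.3499, below the floor. The 5 erythroid markers with a value reached at most 1.39 in cortex and 1.79 in epithelium. All 6 markers of blood vessels and macrophages were below the floor on both arrays. What these other cells contributed to the results below was not tested.

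Every value is a normalized intensity in units of about the array's median. A floor was set at 0.5 of that median (0.499 on both arrays). A gene passed, and is called higher in a sample, when its intensity there was 3 or more times that in the other sample and reached the median of its own array. A gene below the floor on 1 array has a bound, written "at least". With 1 array per sample no test was possible, and no value has a replicate. Over 558 genes with several probes above the floor on both arrays, different probes of a gene differed in their log2 difference with a pooled SD of 1.10 and a median SD of 0.59. That is the only spread that can be given. It is between probes on the same arrays and does not measure variation between arrays, dissections or mice. Intensities of different probes are not read as relative amounts of different genes.

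Most of the antioxidant genes that differed were lower in cortex. Of the 64 genes, 4 passed in cortex (6.25%, against 9.41% of all genes with a value), and 16 passed in epithelium (25.0%, against 8.17% of all genes). The 4 in cortex were Gpx6, Txnrd2, Gstp1 and Cat. The 16 in epithelium were 5 mu-class transferases (Gstm2, Gstm3, Gstm4, Gstm6, Gstm7), Gstk1, Gstt1, Mgst1, Mgst3, Gpx3, Gpx7, Gpx8, Txnrd3, Txndc5, Txndc15 and Txndc16. The mu genes are close copies whose probes may share signal, so these 5 may not be separate results. A further 33 were above the floor on at least 1 array and did not pass, and 11 were at the floor on both arrays. The median log2 difference (cortex minus epithelium) of the 53 genes that reached the floor on either array was -0.32, beside 0.07 for all genes above it. Nearest the limit on the cortex side were Cat (3.45-fold) and Gstp1 (4.78-fold) inside it and Gpx1 (2.97-fold) and Glrx2 (2.93-fold) outside. On the epithelium side Gpx3 (at least 3.10-fold) and Txndc15 (3.16-fold) lay inside and Prdx3 (2.36-fold) and Prdx4 (2.26-fold) outside.

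**Figure D1:**
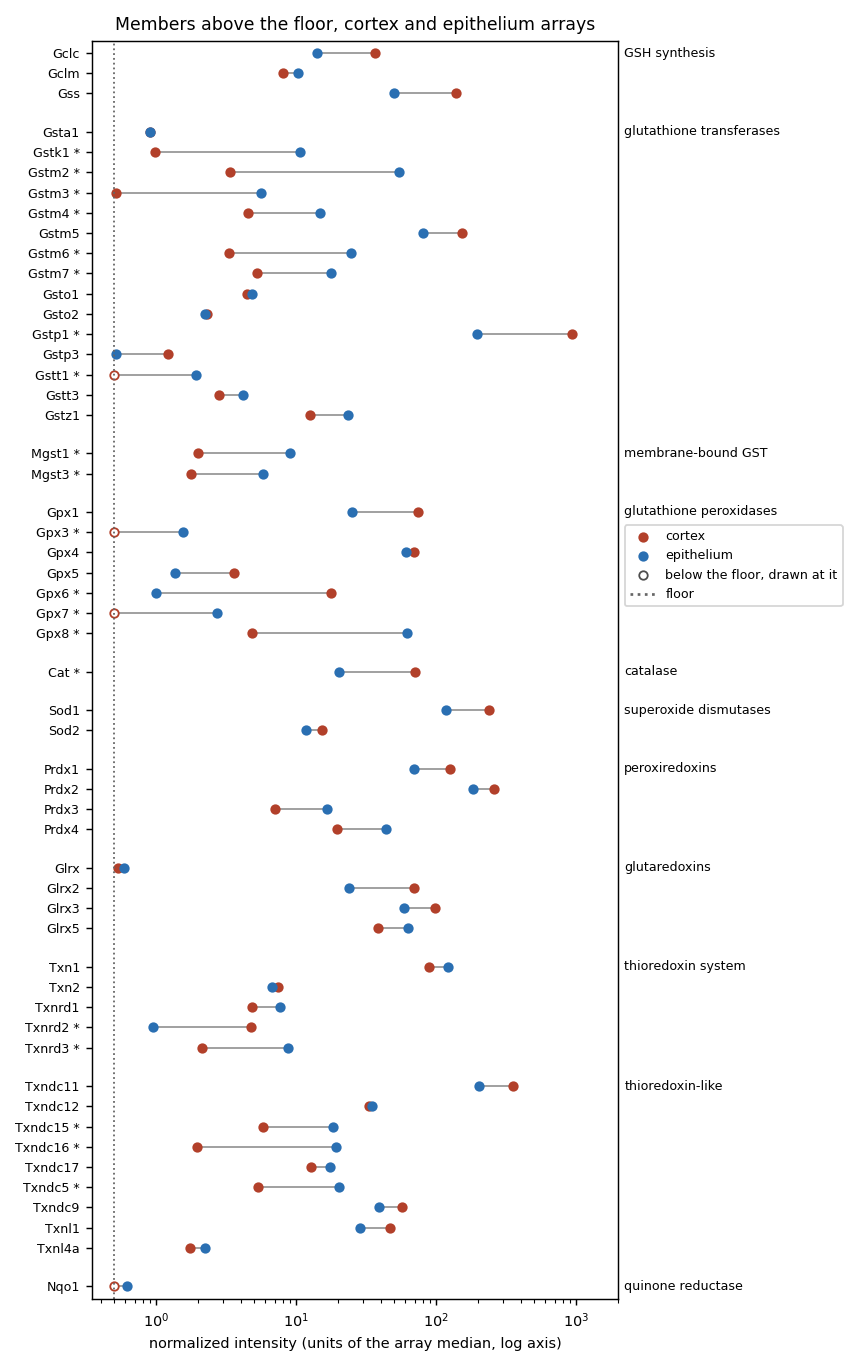
Normalized intensity (log axis, units of the array median) of the 53 antioxidant genes that reached the floor on either array, by class, with 1 point for cortex and 1 for epithelium. Asterisks mark the 20 genes past the 3-fold limit, and hollow points lie below the floor of 0.499 and are drawn at it. The mu transferases other than Gstm5 sit to the right in epithelium, while Gstp1, Gpx6, Cat and Txnrd2 sit to the right in cortex.

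For 3 transferases the sequence around the start site is shown. Gstp1 was the transferase past the limit in cortex, Gstm2 was that with the largest fold in epithelium, and Gstm5 is the measured member of the Gstm2 gene cluster that did not pass as deposited. The windows run 5′ to 3′ on the gene's own strand, from 250 bases before the start site to 50 after it, in RefSeq's GRCm38.p6: chr19:4037863-4038162 on the minus strand for Gstp1, chr3:107895604-107895903 on the plus strand for Gstm5 and chr3:107986371-107986670 on the minus strand for Gstm2. Capitals mark the letters TGACNNNGC, the core of the antioxidant response element that the factor NRF2 binds, and TGANTCA, the AP-1 site, searched on both strands.
Gstp1: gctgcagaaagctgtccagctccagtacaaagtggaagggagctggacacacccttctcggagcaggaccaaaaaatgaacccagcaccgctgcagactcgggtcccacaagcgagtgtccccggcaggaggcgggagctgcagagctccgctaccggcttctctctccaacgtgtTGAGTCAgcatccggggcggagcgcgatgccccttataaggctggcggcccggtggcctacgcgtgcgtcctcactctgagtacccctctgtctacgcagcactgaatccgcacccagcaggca
Gstm5: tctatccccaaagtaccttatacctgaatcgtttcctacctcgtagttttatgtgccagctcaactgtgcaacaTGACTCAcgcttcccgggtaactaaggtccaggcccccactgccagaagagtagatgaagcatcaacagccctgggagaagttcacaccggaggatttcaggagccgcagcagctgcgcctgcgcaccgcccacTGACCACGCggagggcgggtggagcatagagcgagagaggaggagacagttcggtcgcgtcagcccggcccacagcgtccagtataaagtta
Gstm2: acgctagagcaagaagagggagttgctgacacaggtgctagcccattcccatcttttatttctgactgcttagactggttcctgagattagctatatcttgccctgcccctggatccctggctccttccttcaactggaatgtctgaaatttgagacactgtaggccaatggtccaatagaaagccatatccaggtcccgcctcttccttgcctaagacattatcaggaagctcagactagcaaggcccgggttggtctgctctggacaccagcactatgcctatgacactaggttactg
Counted from the start site as 0, the Gstp1 window held TGAGTCA at -74, and the Gstm5 window held TGACTCA at -176 and TGACCACGC at -42. The Gstm2 window held neither. Over the 82 windows of the 60 member genes that RefSeq's table matched, 14.6% held the antioxidant response element core, against 12.4% of all 32851 windows, and 7.32% held the AP-1 letters, against 7.81%. The 2 motifs did not overlap in the windows shown. The 12 member genes with the core in a window were Gclm, Gsta3, Gstm5, Gstm7, Mgst1, Mt2, Prdx1, Sod1, Txndc11, Txndc2, Txndc5 and Txnrd1. Of these, 3 passed in epithelium (Gstm7, Mgst1 and Txndc5), the same share as the 16 of 64 among all members, and none in cortex. A match is a run of letters and not evidence of binding.

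Of the 3 glutathione synthesis genes above the floor, 2 were brighter in cortex, without reaching 3-fold. Gss, the synthetase of the second step, had 139 in cortex against 49.9 in epithelium (2.79-fold). Gclc, the catalytic subunit of glutamate-cysteine ligase, had 36.5 in cortex against 13.98 in epithelium (2.61-fold). Both stayed brighter in cortex in each of the 4 scalings tried, with log2 differences of 0.57 to 1.48 for Gss and 0.47 to 1.38 for Gclc. Gclm, the modifier subunit of the same ligase, had 7.99 in cortex against 10.2 in epithelium (1.28-fold). Gclm was brighter in epithelium in each of the 4 scalings, with log2 differences of -0.36 to -1.27. The deposited difference of -0.36 is smaller than the median SD between probes of a gene (0.59). So are the lowest differences of Gss (0.57) and Gclc (0.47), which came after ribosomal centring. The probe of Gsr, glutathione reductase, was below the floor on both arrays (0.308 in cortex and 0.226 in epithelium), so no difference can be given for it.

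The mu-class transferases, which conjugate glutathione to electrophiles, were the family with the most genes past the limit. Of 6 with a value, 5 passed in epithelium (83.3%, against 8.17% of all genes) and 0 in cortex, and the median log2 difference was -2.33. Gstm2 had 3.34 in cortex against 54.5 in epithelium (16.3-fold). Gstm6 had 3.33 in cortex against 24.7 in epithelium (7.43-fold). Gstm3 had 0.512, just above the floor, in cortex against 5.61 in epithelium, which is 10.9-fold, or at least 5.62-fold with a floor raised to the median. Gstm7 and Gstm4 passed narrowly. Gstm7 had 5.25 in cortex against 17.8 in epithelium (3.38-fold), and Gstm4 had 4.51 against 14.8 (3.29-fold). The exception was Gstm5, at 152 in cortex against 80.4 in epithelium (1.89-fold brighter in cortex, with a log2 difference of 0.92 that shrank to 0.01 with quantile-normalized arrays and to 0.00 with centring on ribosomal protein genes). In RefSeq's GRCm38.p6 the mu genes lie in a row on chromosome 3 in the order Gstm5, Gstm7, Gstm6, Gstm3, Gstm2, Gstm1, Gstm4, so Gstm5 is at an end of the row. These genes are close copies and probe sequences were not used here, so probes may share signal and the separate values of the mu genes are uncertain.

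The other transferases were mixed. Gstp1, the pi-class transferase, had 930 in cortex against 195 in epithelium, a 4.78-fold difference. Its neighbour Gstp2 is a near copy with no probe among those with a single symbol, so the signal may be of both. The difference of Gstp1 kept its direction under every scaling but fell below 3-fold under the other 3, with log2 differences of 1.19 (quantile), 0.99 (loess) and 1.35 (ribosomal), beside 2.26 as deposited. Gstp3, the third gene of that cluster, had 1.21 in cortex against 0.518 in epithelium (2.33-fold).

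Gstk1, the kappa-class transferase of mitochondria and peroxisomes, was on the other side, with 0.987 in cortex against 10.6 in epithelium (10.8-fold). Gstt1 of the theta class had 0.381, below the floor, in cortex against 1.93 in epithelium, at least 3.86-fold, and at least 1.93-fold with a floor raised to the median. Its neighbour Gstt3 differed less (2.81 in cortex against 4.16 in epithelium), and Gstt4 was at the floor on both arrays. Gstz1, which also isomerizes maleylacetoacetate in tyrosine breakdown, had 12.4 in cortex against 23.2 in epithelium (1.87-fold). The omega-class genes, whose products reduce dehydroascorbate, differed little. Gsto1 had 4.44 in cortex against 4.85 in epithelium, and Gsto2 had 2.31 against 2.24. Of the alpha class, Gsta1 was near the floor (0.896 in cortex and 0.901 in epithelium) and Gsta2 and Gsta3 were below it on both arrays. Both measured membrane-bound transferases, which also reduce lipid peroxides, were higher in epithelium. Mgst1 had 1.97 in cortex against 9.08 in epithelium (4.60-fold), and Mgst3 had 1.78 against 5.74 (3.22-fold).

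The glutathione peroxidases differed in both directions and had no common one. Gpx6, a family member known from the olfactory epithelium, had 17.7 in cortex against 1.001 in epithelium, a 17.7-fold difference that passed in each scaling. Gpx5, its neighbour on chromosome 13 and known as a secreted protein of the epididymis, had 3.62 in cortex against 1.36 in epithelium (2.66-fold). Both of these genes were thus brighter in cortex. Gpx1, the widespread cytosolic enzyme, had 74.1 in cortex against 25.0 in epithelium (2.97-fold, just under the limit). Gpx4, which reduces phospholipid hydroperoxides within membranes, differed little (69.1 in cortex against 60.9 in epithelium), and its direction turned under the other 3 scalings.

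Both peroxidases of the endoplasmic reticulum were lower in cortex. Gpx8 had 4.84 in cortex against 61.7 in epithelium, a 12.8-fold difference, and its relative Gpx7 had 0.335, below the floor, in cortex against 2.71 in epithelium, at least 5.44-fold. Gpx3, the secreted enzyme of blood plasma, had 0.317, below the floor, in cortex against 1.55 in epithelium, at least 3.10-fold. With a floor raised to the median the bounds were 2.72-fold for Gpx7 and 1.55-fold for Gpx3, and neither passed. The ciliary body markers named above were also higher on the epithelium array, and their part in the difference of Gpx3, a gene that the ciliary body also expresses, was not tested. Gpx2 was at the floor on both arrays.

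Catalase, which breaks down hydrogen peroxide in peroxisomes, was higher in cortex. Cat had 69.9 in cortex against 20.2 in epithelium (3.45-fold), and it stayed brighter there but under 3-fold in the other 3 scalings (log2 differences of 0.88 to 1.27). Sod1, the cytosolic copper-zinc superoxide dismutase, had 237 in cortex against 117 in epithelium (2.02-fold). That difference was 0.05 or -0.02 on the log2 scale after loess or quantile normalization, so Sod1 has no settled direction. A second Sod1 probe was below the floor on both arrays. Sod2, the mitochondrial manganese enzyme, had 15.2 in cortex against 11.6 in epithelium, with a direction that turned after centring on ribosomal protein genes, and Sod3, the extracellular form, was at the floor on both.

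None of the 4 measured peroxiredoxins passed the limit as deposited. The cytosolic Prdx1 (125 in cortex against 69.1 in epithelium) and Prdx2 (258 against 184) were brighter in cortex as deposited. That direction turned after quantile normalization and after ribosomal centring for both, and after loess for Prdx2. Prdx3 of the mitochondria (7.03 in cortex against 16.6 in epithelium, 2.36-fold) and Prdx4 of the endoplasmic reticulum (19.5 against 44.1, 2.26-fold) were brighter in epithelium in each scaling. Prdx4 passed the limit there after quantile normalization (-1.76), loess (-1.60) and ribosomal centring (-2.09), and Prdx3 after the last (-2.15). Glutaredoxins, which reduce mixed disulfides of glutathione and protein or carry iron-sulfur clusters, were mixed as well. Glrx2 of the mitochondria had 69.7 in cortex against 23.8 in epithelium (2.93-fold, brighter in cortex in each scaling). Glrx5, the monothiol glutaredoxin of mitochondrial iron-sulfur assembly, had 38.01 in cortex against 62.9 in epithelium (1.66-fold). Glrx3, its cytosolic counterpart, had 97.8 in cortex against 59.0 in epithelium, with a direction that turned in the other 3 scalings, and Glrx was close to the floor (0.536 in cortex and 0.591 in epithelium).

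In the thioredoxin system, 1 of 6 genes passed in cortex (16.7%, against 9.41% of all genes) and 1 in epithelium (16.7%, against 8.17%), both of them reductases. Txn1, the cytosolic thioredoxin, had 88.7 in cortex against 122 in epithelium (1.37-fold), and Txn2, the mitochondrial one, had 7.37 against 6.69, with a direction that turned after ribosomal centring. Txnrd1, the cytosolic reductase of thioredoxin, had 4.798 in cortex against 7.61 in epithelium (1.59-fold). Neither member of the cytosolic pair, Txn1 and Txnrd1, passed in any of the 4 scalings.

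Txnrd2, the mitochondrial reductase, had 4.73 in cortex against 0.947 in epithelium (5.00-fold higher in cortex). A second Txnrd2 probe had 1.45 in cortex against 1.69 in epithelium, a small difference the other way, so the call rests on 1 of 2 probes, and it was lost with the mean over probes and after ribosomal centring. Txnrd3, a reductase with a glutaredoxin domain known from testis, had 2.12 in cortex against 8.72 in epithelium (4.12-fold). Txnip, which binds and inhibits thioredoxin, was below the floor on both arrays (0.361 in cortex and 0.498 in epithelium).

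Among thioredoxin-domain proteins, 3 of 12 were higher in epithelium (25.0%, against 8.17% of all genes) and none in cortex. Txndc16 had 1.94 in cortex against 19.3 in epithelium (9.92-fold), and another Txndc16 probe lay below the floor in both samples. Txndc5, a disulfide isomerase of the endoplasmic reticulum, had 5.36 in cortex against 20.1 in epithelium (3.75-fold), and its second probe had 4.05 against 10.3 (2.55-fold), in the same direction. Txndc15 had 5.79 in cortex against 18.3 in epithelium (3.16-fold). Txndc11, a membrane protein of the endoplasmic reticulum, had 3 probes that did not share a direction. The probe with the highest mean had 352 in cortex against 201 in epithelium. The other 2 had 2.58 against 6.03 (2.34-fold brighter in epithelium) and 0.441, below the floor, against 1.89 (at least 3.78-fold), so no direction is given for the gene.

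The rest of this group differed by less than 3-fold. Txndc12 had 33.1 in cortex against 34.9 in epithelium, Txndc17 had 12.7 against 17.3 and the splicing factor gene Txnl4a, a family member by sequence rather than by antioxidant role, had 1.75 against 2.22. Txndc9 (57.2 in cortex against 39.2 in epithelium) and Txnl1 (46.7 against 28.5) were brighter in cortex as deposited, a direction that turned for Txndc9 in the other 3 scalings and for Txnl1 after ribosomal centring. Txndc2 and Txndc8, known from sperm, and Txnl4b were at the floor on both arrays. Of the last enzymes, the quinone reductase gene Nqo1, a much-used NRF2 target, was near the floor (0.273 in cortex against 0.622 in epithelium). Mt2, a metal-binding metallothionein, was below it on both (0.117 in cortex and 0.0507 in epithelium).

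The share of members higher in epithelium was above that of all genes in each of the 4 scalings, while 3 of the 4 calls in cortex depended on the scaling. All 16 epithelium calls passed under the deposited scaling, quantile normalization, loess on brightness and centring on ribosomal protein genes alike. The members higher in epithelium were 26.6% after quantile normalization (9.48% of all genes), 26.6% after loess (8.57% of all genes) and 31.2% after ribosomal centring (20.0% of all genes). The members higher in cortex were 3.12%, 3.12% and 1.56% under the same settings, beside 8.28%, 8.75% and 4.32% of all genes. Gpx6 alone of the 4 cortex genes passed in every scaling. The lens fiber markers lost calls as well. Of 12, 10 passed in cortex as deposited, 5 after quantile normalization, 5 after loess and 7 after ribosomal centring. The fiber markers Crygs and Cryba1 had a log2 difference of 0 after quantile normalization. All 7 lens epithelium markers passed in epithelium in each scaling. Ribosomal centring moved the median of all genes by -0.91, quantile normalization by -0.17 and loess by -0.12 on the log2 scale. Over the 53 members above the floor on at least 1 array, 31 were brighter in epithelium in all 4 scalings, 11 were brighter in cortex in all 4, and 11 changed direction.

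**Figure D2:**
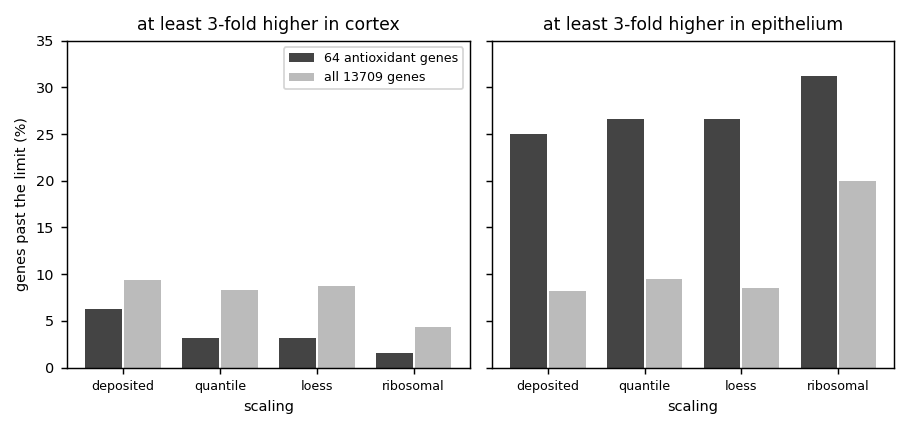
Percent of the 64 antioxidant genes (dark bars) and of all genes with a value (light bars) that were at least 3-fold higher in cortex (left) or in epithelium (right), under 4 scalings of the arrays. In epithelium the dark bars stand at 25.0% to 31.2% and the light bars at 8.17% to 20.0%.

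**Figure D3:**
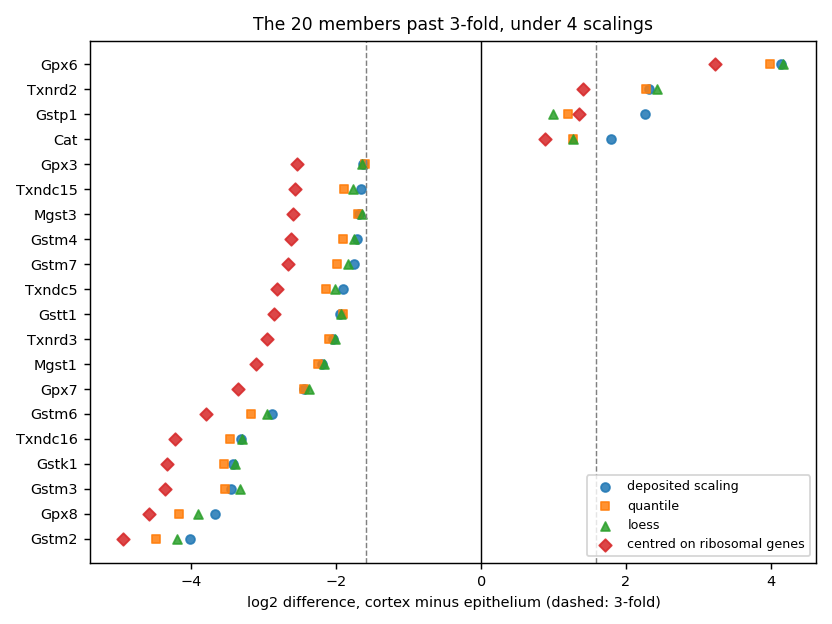
Log2 difference, cortex minus epithelium, of the 20 antioxidant genes past 3-fold as deposited, with 1 marker for each of 4 scalings and dashed lines at 3-fold. The 16 genes higher in epithelium stay left of the dashed line in each scaling, and of the 4 in cortex only Gpx6 stays right of it in each.

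The members were also sorted by the cell compartment where their proteins are known to reside, a property that did not enter their choice. This sorting was made after the values were seen and is given as a description. Of 9 genes of the endoplasmic reticulum, 6 passed in epithelium (Gpx8, Txndc16, Gpx7, Mgst1, Txndc5 and Mgst3) against 0 in cortex, and the median log2 difference of the 9 was -1.91. That is 66.7% in epithelium, against 8.17% of all genes. The other 3 were Prdx4 (-1.18), Txndc12 (-0.08) and Txndc11 (0.81 for the probe used, with the other probes on the opposite side). Of 30 cytosolic genes, 6 were higher in epithelium (20.0%), 5 of them mu transferases, with a median of -0.13. In cortex 1 was higher, Gstp1 (3.33%, against 9.41% of all genes). Of 6 genes assigned to mitochondria, 1 passed in cortex (16.7%), Txnrd2 on 1 of its 2 probes, and none in epithelium, with a median of 0.26. That median turned to -0.65 after ribosomal centring, when Prdx3 (-2.15) and Glrx5 (-1.64) passed in epithelium, as did 20.0% of all genes. Gstk1, which belongs to mitochondria and peroxisomes and passed in epithelium, was left unassigned. The counts by compartment depend on such choices, among them the placing of Mgst1 in the endoplasmic reticulum. The median of the endoplasmic reticulum genes was -2.15 after quantile normalization, -2.01 after loess and -2.82 after ribosomal centring.

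A list of folding enzymes and chaperones of the endoplasmic reticulum, none of them members, was read beside these. Of 21 with a value, 5 were higher in epithelium (P4hb, Pdia5, Ero1a, Sdf2l1 and Creld2) against 0 in cortex, and the median log2 difference was -1.34. That is 23.8% in epithelium, against 8.17% of all genes. The count was 9 after quantile normalization, 9 after loess and 16 after ribosomal centring, when 20.0% of all genes passed. The protein disulfide isomerase gene P4hb had 7.29 in cortex against 35.7 in epithelium (4.89-fold), and its relative Pdia5 had 0.942 against 12.5 (13.2-fold). Hspa5, the main chaperone of that compartment, had 15.2 in cortex against 39.8 in epithelium (2.62-fold). In all, 18 of the 21 were brighter in epithelium, beside 4849 of 10346 genes above the floor.

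**Figure D4:**
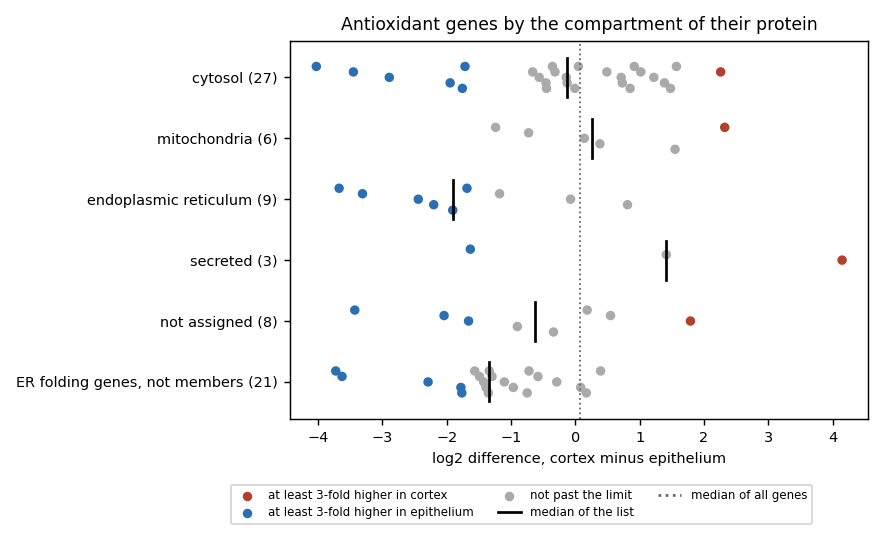
Log2 difference, cortex minus epithelium, of each antioxidant gene above the floor, by the compartment of its protein, with 21 folding genes of the endoplasmic reticulum (ER) in the last row. Black bars are medians, the dotted line is the median of all genes (0.07), and the number of genes stands in parentheses. The endoplasmic reticulum row lies mostly left of 0, with its median at -1.91.

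Genes that feed and control these enzymes were examined in 4 further lists, read beside the 9.41% of all genes that passed in cortex and the 8.17% in epithelium. Of 15 NRF2 regulators and targets with a value, 2 passed in cortex (13.3%) against 0 in epithelium, and the median log2 difference was 0.19, which turned to -0.37, -0.25 and -0.73 under quantile, loess and ribosomal scaling. Hmox1, heme oxygenase 1, had 1327 in cortex against 12.2 in epithelium, and Ftl1, the light chain of the iron store ferritin, had 359 against 87.5 (4.11-fold, under 3-fold in the other scalings). The factor itself and its inhibitor did not pass as deposited. Nfe2l2, which encodes NRF2, had 6.05 in cortex against 7.23 in epithelium, and Keap1, its inhibitor, had 3.68 against 9.11 (2.47-fold). After ribosomal centring Keap1 (-2.22) and Nfe2l1 (-2.31), a relative of the factor, passed in epithelium, and the counts were 1 in cortex against 2 in epithelium. Gclm and Txnrd1, given above, and Srxn1, the reductase of overoxidized peroxiredoxins (1.03 in cortex against 0.906 in epithelium), are known targets of the factor. They were within 3-fold, and Nqo1 was near the floor. These genes do not stand for all targets among the members. Other members did pass, among them Gstp1 (4.78-fold in cortex) and Gstm3 (10.9-fold in epithelium).

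Of 23 genes of cystine, cysteine and glutathione transport and breakdown, 4 passed in cortex (17.4%) against 2 in epithelium (8.70%, near the share of all genes), and the median log2 difference was -0.34. After ribosomal centring the counts were 2 against 7 and the median was -1.25, when 4.32% of all genes passed in cortex and 20.0% in epithelium. Slc1a2, a glutamate transporter of the plasma membrane, had 78.2 in cortex against 0.479, below the floor, in epithelium, at least 157-fold. Ggct, which cleaves gamma-glutamyl amino acids in the glutathione cycle, had 132 in cortex against 7.63 in epithelium (17.3-fold). The peptidase genes Dpep1 (17.4 in cortex against 4.76 in epithelium) and Lap3 (29.8 against 8.95), which can act on cysteinyl-glycine, were also higher in cortex. Dpep1 was under 3-fold after ribosomal centring (0.96), and Lap3 passed with the deposited scaling alone (1.44 quantile, 1.51 loess, 0.82 ribosomal). Slc3a2, the heavy chain that the cystine transporter shares with other amino acid transporters, had 12.8 in cortex against 65.0 in epithelium (5.09-fold higher in epithelium). Cbs, which starts the path from homocysteine to cysteine, had 0.324, below the floor, in cortex against 1.98 in epithelium, at least 3.96-fold. Slc1a2 and Cbs each had 2 probes, and only the probe with the higher mean is given, so agreement between their probes is not shown.

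Of 14 genes of NADPH supply, 3 passed in epithelium (21.4%) against 0 in cortex, and the median log2 difference was -0.78. After ribosomal centring 7 passed in epithelium, when 20.0% of all genes did, and the median was -1.69. Tkt, the transketolase of the pentose phosphate pathway, had 58.0 in cortex against 342 in epithelium (5.90-fold). H6pd, the hexose 6-phosphate dehydrogenase of the endoplasmic reticulum, had 0.556, just above the floor, in cortex against 6.02 in epithelium (10.8-fold), and Nadk, which makes NADP, had 1.94 against 6.21 (3.20-fold). Pgd, the NADPH-forming phosphogluconate dehydrogenase of the pentose phosphate pathway, had 3.39 in cortex against 9.24 in epithelium (2.73-fold). Of the 13 genes above the floor, 9 were brighter in epithelium and 4 in cortex as deposited. Among the latter, Me1 had 12.9 in cortex against 5.20 in epithelium (2.47-fold, brighter in cortex in each scaling). Of 18 genes of aldehyde, methylglyoxal and methionine sulfoxide repair, 2 passed in cortex (11.1%) against 1 in epithelium (5.56%), shares near those of all genes, and the median log2 difference of 0.56 turned to -0.35 after ribosomal centring. The counts were 1 against 2 after quantile normalization, 2 against 2 after loess and 0 against 2 after ribosomal centring. Under that centring 4.32% of all genes passed in cortex and 20.0% in epithelium. Park7, a redox-sensitive protein, had 171 in cortex against 51.8 in epithelium (3.31-fold), the aldose reductase relative Akr1b8 had 6.96 against 1.75 (3.98-fold), and Aldh2, the mitochondrial aldehyde dehydrogenase, had 3.74 against 22.8 (6.09-fold higher in epithelium). Park7 passed with the deposited scaling alone. H6pd and Aldh2 each had 2 probes, and only the probe with the higher mean is given.

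**Figure D5:**
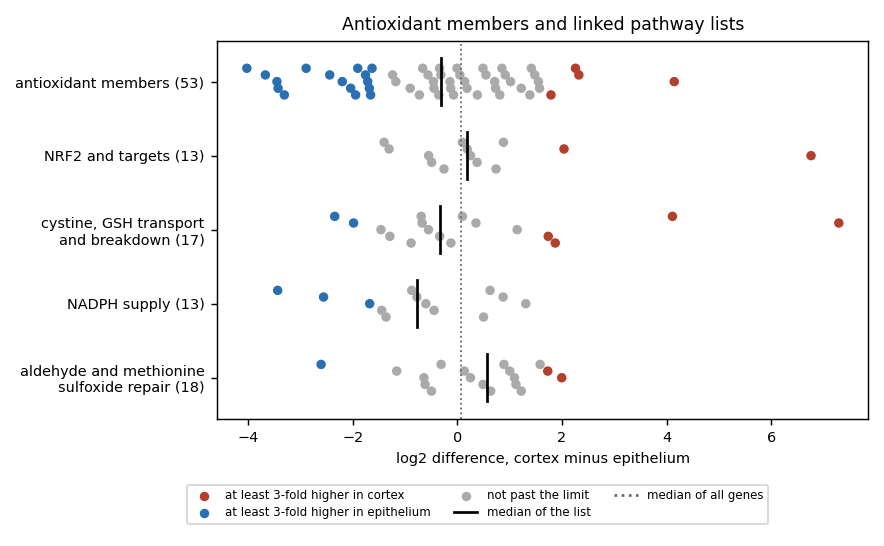
Log2 difference, cortex minus epithelium, of the 53 antioxidant genes and of the genes above the floor in 4 linked lists. Black bars are medians, the dotted line is the median of all genes, and red and blue points mark genes past 3-fold in cortex and in epithelium. The far right points are Slc1a2 (7.29, for the brighter of its 2 probes) and Hmox1 (6.76).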

How the data were processed

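The single deposited table holds 1 normalized intensity per probe and array on a linear scale. Per the labels, biotin-labelled complementary RNA from poly(A) RNA was hybridized to a 1-colour CodeLink mouse bioarray and read with the CodeLink software; the sources used here do not give the background and scaling steps. Array medians were 0.998 and 0.998, 161 cortex and 74 epithelium intensities were below 0, and 87 and 97 were missing. The array number limits precision, and spot flags were not used.

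Probes were named through the platform annotation, and all 67 member genes matched RefSeq's GRCm38.p6 table with no changed symbol. Values were floored at 0.5 of the array median and log2 was taken. The probe with the highest mean represented a gene, and all probes of members are reported, but list genes are given by that probe alone. Loess used a span of 0.3, and ribosomal centring 60 genes. The procedure was tested on simulated data, with shifts larger than 3-fold in bright probes and noise smaller than the spread between probes of a gene. Ribosomal centring was not simulated. The simulation does not bear on calls near the floor or near the limit. Members, lists and limits were chosen with earlier results of these data known; the compartments and 2 lists (folding enzymes of the endoplasmic reticulum, selenoprotein synthesis) were added after values were seen. Named genes are the members past 3-fold, the 12 with the highest mean, those with several measured probes and those nearest the limit; other members are given in pairs of values or by name, and list genes where past 3-fold or where a result turns on them. The work used pandas 2.3.3, numpy 2.4.6, statsmodels 0.14.6 and matplotlib 3.10.9 in Python 3.11.15.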

Additional observations from a re-analysis of the deposited data

How the results depend on the processing

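No paired analysis was possible because each group holds 1 array, and leaving out a replicate was not possible either. The count of 16 members higher in epithelium was 13 with the floor at the array median (Gpx3, Gpx7 and Gstt1, which have bounds, no longer passed) and 7 with a 5-fold limit. The count of 4 in cortex became 2 after quantile normalization, 2 after loess (both without Gstp1 and Cat), 1 after ribosomal centring, 11 with a 2-fold limit and 1 with a 5-fold limit. At the 2-fold limit 17.2% of the members were higher in cortex, against 16.4% of all genes, so the cortex share was not below that of all genes there. In epithelium 18 members were higher at that limit (28.1%, against 15.3% of all genes). Over all genes the counts in cortex and epithelium were 592 and 2738 after ribosomal centring, 2243 and 2101 with the 2-fold limit and 698 and 477 with the 5-fold limit, beside 1290 and 1120; cortex took 53.5% of the calls as deposited and 17.8% after ribosomal centring. That centring moves every measured difference by the same amount by construction. Under it the member median was -1.23, and the class medians were 0.88 (catalase), 0.47 (glutathione synthesis), -1.81 (glutathione transferases), -2.86 (membrane-bound transferases), -1.23 (Nqo1), -1.26 (peroxiredoxins), -1.37 (thioredoxin system) and -1.25 (thioredoxin-domain proteins). Medians that changed sign were those of glutaredoxins (0.29 as deposited, -0.21 quantile, -0.13 loess, -0.62 ribosomal), glutathione peroxidases (0.18 as deposited, -0.10 without a floor, -0.61 quantile, -0.52 loess, -0.73 ribosomal) and superoxide dismutases (0.70 as deposited, 0.057 quantile, -0.21 ribosomal). For glutathione synthesis the median under quantile and loess scaling was 0.67 and 0.70, for peroxiredoxins it was -1.004 and -0.96, and Nqo1 stood at -1.19 without a floor. The cause of these changes was not tested. Values near the floor limit the dim members, and no value has a replicate.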

Other observations

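Of the genes listed for selenoprotein synthesis and selenium transport, on which several glutathione peroxidases and the thioredoxin reductases depend for their selenocysteine, 6 had a value. As deposited, 1 passed in epithelium (16.7%, against 8.17% of all genes) and 0 in cortex. It was Selenop, the plasma protein that carries selenium to tissues. Selenop had 0.474, below the floor, in cortex against 4.72 in epithelium, at least 9.45-fold. After ribosomal centring 2 passed in epithelium, Selenop and Secisbp2 (-1.586), when 20.0% of all genes did. This list was added after the members' values were seen.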
